A study of Mus musculus with 18 samples.

Results

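Levels of 9 genes for ion transport in sperm were followed in the mRNA-seq of round spermatids (RS), the haploid germ cells that later elongate into sperm. The genes were taken by name from a table of 54232 genes: the Na,K-ATPase subunits Atp1a4, Atp1b1 and Atp1b3, the potassium channel Kcnu1 with its accessory subunit Lrrc52, the exchanger Slc9c1, the adenylyl cyclase Adcy10, the proton channel Hvcn1 and the calcium pump Atp2b4. Among them, 8 passed the filter on low counts and were tested, and Hvcn1 did not pass. RS came from mice 75 to 85 days old of 3 genotypes, with 6 libraries each: wild-type (WT) mice, mice without GRTH (KO), and knock-in (KI) mice that make GRTH from a human gene with a missense mutation and lack its phosphorylated form. GRTH, also named DDX25, is an RNA helicase of male germ cells and Leydig cells. The cells were separated on an albumin gradient after a collagenase step against Leydig cells, and less of an mRNA per cell cannot be told apart from fewer cells that hold it. Counts summed to between 18766971 and 26776555 per library. The labels give separate samples but not separate animals, so the p-values measure the spread between samples, which may be technical.

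The Na,K-ATPase exchanges sodium for potassium across the plasma membrane at the cost of ATP, with a catalytic alpha subunit and a beta subunit that the alpha subunit needs to reach the membrane. In sperm a testis form of the alpha subunit is needed for motility and fertility. The other genes act together in swimming sperm: a sodium-proton exchanger and a proton channel raise the pH inside the cell, a potassium channel sets the membrane potential, a bicarbonate-activated cyclase makes cAMP, and calcium pumps clear the calcium that enters the tail.

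Before the ion transport genes, the targeted gene was read in every library. Ddx25 (ENSMUSG00000032101, chr9:35536647-35558528 on GRCm38, minus strand) had between 538 and 607 CPM (counts scaled to library size, with TMM factors) in WT and between 47.7 and 90.9 in KO. In KI it lay between 0.05 and 0.52 CPM in 5 libraries and at 56.9 CPM in the library labelled KI 4. The log2 fold change was -3.02 (SE 0.95, adjusted p 0.0235) in KO and -5.86 (SE 1.09, adjusted p 0.000341) in KI, by edgeR's quasi-likelihood test with Benjamini-Hochberg adjustment, and a gene was called at an adjusted p under 0.1. Without KI 4 it was -10.85 (SE 0.31, adjusted p 9.76e-16) in KI and -3.02 (adjusted p 3.77e-10) in KO. The library labelled KI 4 thus lay inside the KO range. Its counts were also closest to a KO library: the squared difference from KO 2, as a median over genes, was 1.59 times what sampling noise gives. This was the lowest of 153 pairs, and the next pair of unlike genotypes stood at 4.73. Within a genotype 6 further pairs were close, at 2.07 to 3.02 times the noise (KO 4 with KO 5, WT 1 with WT 2, KI 1 with KI 2, KI 3 with KI 5, WT 3 with WT 4, and WT 5 with WT 6). All 18 libraries were kept apart in the values below, and where a call on an ion transport gene was lost without KI 4 or with close pairs summed, the value is given beside it.

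Markers of later spermatids moved with the genotype. The 10 markers of the list, of which Prm2 (protamine) was the most abundant in WT, summed to 19610 ± 2296 CPM (SD, n = 6) in WT, against 3726 ± 1024 in KO and 3292 ± 471 in KI. All 10 fell past 1 log2 unit in both mutants, where 1.13% of all genes tested in KO and 1.43% in KI did. The study named all 10 among the genes it found changed in these same libraries, so their fall is not independent evidence. For the other marker lists, counted by a change of any amount, the shares over all genes were 16.4% higher and 13.5% lower in KO, and 16.1% and 15.4% in KI. Of the later spermatid markers, Prm2 and Tnp2 are, by the paper, transcribed in RS and stored there. The 8 round spermatid markers summed to 896 ± 182 CPM in WT, against 804 ± 217 in KO and 694 ± 91.0 in KI. Of these, 1 fell in KO and 3 fell in KI, and all 8 had a negative log2 change in KI, from -0.75 to -0.01 with a median of -0.39. The fall in KO was that of Catsper3 (-0.53, adjusted p 0.0246), which with Catsper4 is also on the CatSper list described below. Acr, the proacrosin gene, had the smallest change of the 8 in KI (-0.01). It had 188 ± 11.8 CPM in WT against 194 ± 36.9 in KO and 186 ± 38.7 in KI. Leydig cell markers were low but all 6 were higher in both mutants, summing to 12.03 ± 3.82 CPM in WT, against 39.98 ± 9.91 in KO and 34.9 ± 21.9 in KI, with Cyp17a1 rising from 3.49 to 14.9 and 12.9 CPM. Lhcgr, 1 of these 6, reached the level the filter asks for in no WT library and passed through mutant libraries. No Leydig marker was at the floor of 3 counts in all libraries. The Leydig sum split in KI, with 46.2, 66.1 and 49.5 CPM in KI 1, KI 2 and KI 4. In KI 3, KI 5 and KI 6 it was 16.6, 13.4 and 17.7 CPM, inside the WT range of 9.76 to 19.7. The 9 spermatocyte markers summed to 1414, 1523 and 1572 CPM, with 2 higher and 2 lower in KO and 1 each way in KI, and the 7 spermatogonium markers to 35.1, 51.6 and 40.01 CPM, with 2 higher in KO and 1 in KI. KI 4 alone had 76.3 CPM of the spermatogonium markers, and without it the KI mean was 32.8, below WT. The Sertoli list (8 genes; 18.1, 16.1 and 15.4 CPM; 1 lower in KO and 2 in KI) and the peritubular list (4 genes, 3 tested; 5.53, 4.96 and 4.69 CPM; 1 each way in KO and 1 lower in KI) were scarce. So were the macrophage list (6 genes; 9.09, 10.2 and 11.8 CPM; 2 higher and 1 lower in each mutant), the endothelial list (5 genes; 14.8, 24.8 and 23.5 CPM; 2 higher in each) and the erythrocyte list (5 genes, 2 tested; 2.68, 1.79 and 2.64 CPM; 1 lower in KO, and 1 each way in KI). Of these rises, 1 macrophage and 1 endothelial gene in each mutant and the erythrocyte gene in KI would not have passed the filter on WT libraries alone. The part of any of these cells in the results below was not tested.

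Atp1b3, a beta subunit of the Na,K-ATPase, fell most of the 8 genes tested. The gene (ENSMUSG00000032412) lies at chr9:96332655-96364442 on the minus strand. Its level in WT libraries ran from 286 CPM through a median of 357 to 372. In KO it ran from 52.3 through 114 to 149, and in KI from 67.9 through 92.0 to 106. Every WT library was above every KO and KI library. The mean fell from 347 ± 31.7 CPM (SD, n = 6) in WT to 109 ± 36.0 in KO and 90.4 ± 14.8 in KI. Its log2 fold change was -1.67 (SE 0.19) in KO and -1.94 (SE 0.19) in KI, or 3.18-fold and 3.83-fold lower. Against a change of any size the adjusted p was 1.04e-06 in KO and 1.09e-07 in KI (edgeR). Against a change of 1 log2 unit, the threshold of the study, it was 0.0550 in KO and 0.00248 in KI. Atp1b3 was the only one of the 8 genes past that threshold, in KO and in KI, where 1.13% and 1.43% of the 21058 genes tested had fallen past it and 1.73% and 1.95% had passed it in either direction. The study took up Atp1b3 from these same libraries, so its fall is not independent evidence. The KO call at 1 log2 unit was lost without WT 1, WT 2, WT 5, KO 2 or KO 6 (adjusted p 0.104, 0.114, 0.115, 0.157 and 0.135), and with close pairs summed and KI 4 left out it was 0.302 in KO and 0.290 in KI, while the fall by any amount stayed called (0.000263 and 0.000754).

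Atp1a4 encodes the testis form of the catalytic alpha subunit (ENSMUSG00000007107, chr1:172223513-172258414, minus strand). It was lower in both mutants, by less than its beta partner. Its level ran from 438 CPM through 524 to 715 in WT, from 102 through 308 to 410 in KO, and from 192 through 250 to 306 in KI. No KO or KI library reached the lowest WT library, and the nearest was KO 1. The log2 fold change was -0.96 (SE 0.24, adjusted p 0.00466) in KO and -1.17 (SE 0.24, adjusted p 0.000860) in KI. It was not past 1 log2 unit in either. Within WT the libraries WT 1 and WT 2, a close pair, stood highest, at 685 and 715 CPM. Without KI 4 the change in KI was -1.13 (adjusted p 0.00256), and with close pairs summed it stayed called in both mutants (0.0412 and 0.0908).

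Atp1b1, the beta subunit of most other tissues, was scarce (ENSMUSG00000026576, chr1:164437109-164458355, minus strand). It had 2.59 ± 0.316 CPM in WT, against 2.01 ± 0.612 in KO and 1.80 ± 0.422 in KI, or between 27 and 72 counts a library. The log2 difference from WT was -0.37 in KO (SE 0.20, adjusted p 0.204) and -0.53 in KI (SE 0.20, adjusted p 0.0579). All 6 KI libraries lay below all 6 WT libraries, while KO overlapped WT. The KI call was lost without WT 1, WT 3, WT 6, KI 1, KI 2 or KI 6 (adjusted p 0.101 to 0.131). It was also lost with no filter, and with close pairs summed and KI 4 left out (0.337). A KO call appeared without KO 2 (-0.54, adjusted p 0.0493). The 3′ end of Atp1b1 overlaps Nme7 on the opposite strand, which had 129 CPM in WT, and the counting used strand.

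**Figure D1:**
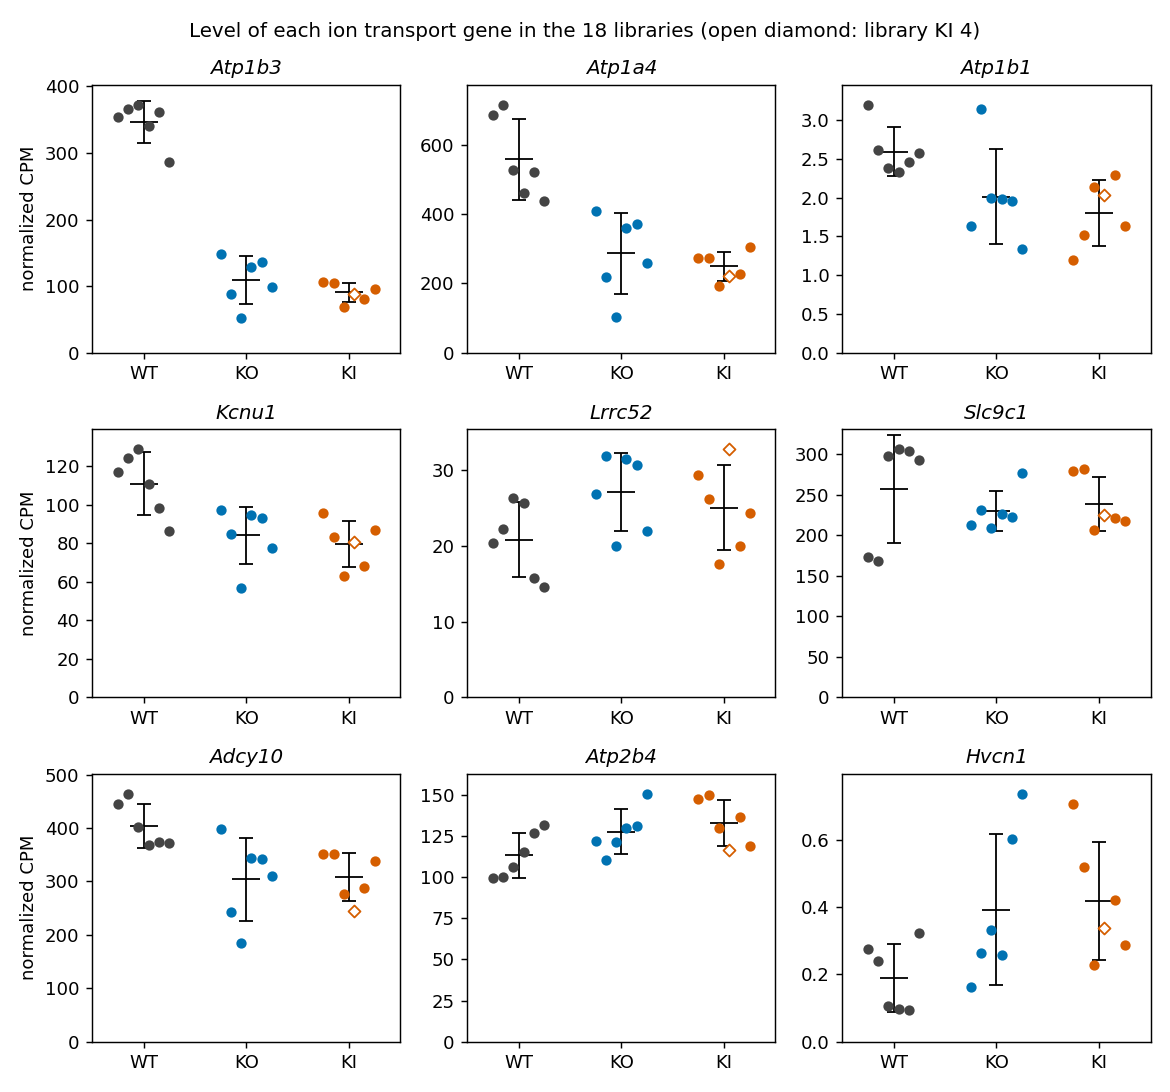
Level of each of the 9 genes in CPM (y axis, from 0) in the WT, KO and KI libraries, with 1 point per library, a horizontal line at the mean and bars of 1 SD (n = 6). Atp1b3 in KO and KI lies below 150 CPM in every library and above 280 in every WT library, while Slc9c1, Lrrc52 and Atp2b4 overlap between genotypes.

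The 30 bases before the start of the subunit genes are shown because these genes of the same pump differed in level and in change. They are from RefSeq windows on GRCm38.p6 (250 bases before to 50 after the start), which 7 of the 9 genes have, and are shown 5′ to 3′ on the minus strand, with a GC box in capitals.
Atp1b3, chr9:96364432-96364461: atccGGGCGGctctgggcctttgggccgcg
Atp1a4, chr1:172258425-172258454: gacccagggctgggagcaccaggcctgccc
Atp1b1, chr1:164458356-164458385: tatatagtaaaggtagggcgtgcgccctca

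The first Atp1b3 window, shown here, was the richest of these in G and C, at 76.0% against 55.7% for Atp1a4 and 71.0% for Atp1b1, with a median of 52.7% over 32851 windows. It held 6 GC boxes (GGGCGG, either strand), a number reached by 1.35% of windows, whereas 35.7% of windows held at least 1. The Atp1a4 window held none of the 5 motifs searched, which besides the GC box were the cAMP response element TGACGTCA, its shorter form TGACG that lies within it, the TATA box TATAAA and the CCAAT box CCAAT, all on both strands. The full cAMP response element, a site for the spermatid factor CREM, was in none of the members' windows and in 1.79% of all windows. The shorter form was in both windows of Atp1b3, in that of Atp2b4 and in 20.8% of all windows. A match describes letters and not a site in use.

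The comparison of Atp1b3 with the other subunits used the log2 ratio of their levels in each library, with an exact permutation test (two-sided, 15 tests, Benjamini-Hochberg adjustment). Relative to Atp1a4 the log2 ratio of Atp1b3 was -0.67 ± 0.24 (SD, n = 6) in WT, -1.33 ± 0.19 in KO and -1.46 ± 0.12 in KI. It fell by 0.67 in KO (exact p 0.00433, adjusted 0.00649) and by 0.79 in KI (exact p 0.00216, the smallest this design allows, adjusted 0.00361). All KI libraries lay below all WT libraries. In KO the library KO 3, at -0.96, lay level with WT 1 and WT 2, and the other KO libraries lay between -1.47 and -1.30.

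Relative to the beta subunit genes Atp1b1 and Atp1b2 the ratio of Atp1b3 fell as well. The change in KO was -1.35 against Atp1b1 and -2.18 against Atp1b2. In KI the changes were -1.42 and -2.15. For both of these subunits every KO and every KI library lay below every WT library, at the smallest exact p of 0.00216 (adjusted 0.00361). With close pairs summed and KI 4 left out the ratios kept their direction, and none was called (adjusted p 0.107 in KO and 0.15 in KI), where 3 WT values against 3 KI values cannot give a p below 0.1. Between KI and KO none of these 3 ratios passed the test (adjusted p 0.348 to 0.961).

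**Figure D2:**
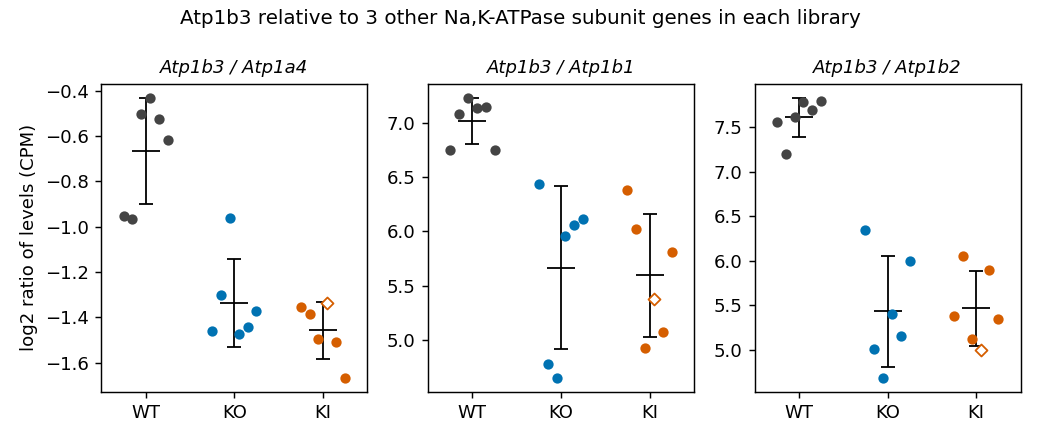
Log2 ratio of the Atp1b3 level to that of 3 other Na,K-ATPase subunit genes (y axes, which differ between panels) in each WT, KO and KI library, with the mean and bars of 1 SD (n = 6) and KI 4 as an open diamond. WT libraries lie above all mutant libraries in the Atp1b1 and Atp1b2 panels, and in the Atp1a4 panel KO 3 lies level with WT 1 and WT 2.

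Per kb of exon, the alpha and beta subunits of the testis were close in WT. Atp1a4 had 152 ± 31.6 CPM per kb and Atp1b3 145 ± 13.3, which did not differ beyond their spread. Atp1b3 per Atp1a4, both per kb, was 0.978 ± 0.153 in WT, 0.613 ± 0.0892 in KO and 0.560 ± 0.0471 in KI. Atp1b1 had 0.842 ± 0.102 CPM per kb in WT, so Atp1b3 exceeded it 174-fold ± 25.2 there, 76.1-fold ± 33.7 in KO and 70.2-fold ± 28.6 in KI. Atp1b3 was thus the more abundant of these beta subunit mRNAs in each genotype. The rest of the 9 followed in WT in the order Slc9c1 (63.3 ± 16.5 CPM per kb), Adcy10 (46.2 ± 4.73), Kcnu1 (29.7 ± 4.33), Lrrc52 (18.2 ± 4.31) and Atp2b4 (9.26 ± 1.13), with Atp1b1 and Hvcn1 (0.0531 ± 0.0286) last. The neighbours Slc9c1 and Adcy10 did not differ beyond their spread.

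Kcnu1, the pore of the sperm potassium channel, was lower in both mutants (ENSMUSG00000031576, chr8:25849623-25937939, plus strand). It ran from 86.5 CPM through 114 to 129 in WT, from 57.0 through 89.0 to 97.2 in KO and from 62.8 through 81.9 to 95.6 in KI. The groups overlapped, since WT 6 lay inside the KO and KI ranges. The log2 fold change was -0.40 (SE 0.14, adjusted p 0.0419) in KO and -0.48 (SE 0.14, adjusted p 0.0146) in KI, and with close pairs summed and KI 4 left out neither was called (adjusted p 0.155 and 0.261).

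Lrrc52, the leucine-rich repeat protein that helps this channel open, did not pass the test (ENSMUSG00000040485, chr1:167445669-167466780, minus strand). Its mean level was 20.8 ± 4.93 CPM in WT, against 27.2 ± 5.13 in KO and 25.1 ± 5.66 in KI. Its log2 change was +0.38 (SE 0.17, adjusted p 0.120) in KO and +0.27 (SE 0.17, adjusted p 0.291) in KI. In KO it was called without WT 3, WT 4, KO 3, KO 6 or KI 3 (adjusted p 0.0512 to 0.0976), and in KI without WT 3 (0.0783). Kcnu1 per Lrrc52, both per kb, was 1.67 ± 0.219 in WT, 0.953 ± 0.116 in KO and 0.990 ± 0.127 in KI. Every WT library, the lowest at 1.32, was above every KO and KI library, the highest at 1.11, and this ratio was not tested.

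Slc9c1, the sperm sodium-proton exchanger that is needed for motility, did not pass the test (ENSMUSG00000033210, chr16:45535309-45607001, plus strand). It ran from 168 CPM through 295 to 306 in WT, from 208 through 224 to 277 in KO and from 207 through 223 to 281 in KI. The WT libraries split, with WT 1 and WT 2 at 174 and 168 CPM and the other 4 between 293 and 306. On the log2 scale the change was -0.16 (SE 0.16, adjusted p 0.523) in KO and -0.11 (SE 0.16, adjusted p 0.688) in KI. Leaving out any 1 library kept the sign, with KI between -0.20 and -0.0021.

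Adcy10, the soluble adenylyl cyclase that bicarbonate activates, was lower in both mutants by a small amount (ENSMUSG00000026567, chr1:165485183-165576774, plus strand). It had 404 ± 41.3 CPM in WT, against 304 ± 77.2 in KO and 309 ± 44.8 in KI. KI libraries, the highest at 352, lay below WT libraries, the lowest at 368, while KO 1 reached 398. Its log2 fold change was -0.41 (SE 0.16, adjusted p 0.0634) in KO and -0.39 (SE 0.16, adjusted p 0.0762) in KI. The KO call was lost without WT 1, WT 2, KO 2 or KO 3 (adjusted p 0.119 to 0.144), and the KI call without WT 1, WT 2, WT 3, KI 3, KI 4 or KI 5 (0.125 to 0.156). With close pairs summed and KI 4 left out neither was called (0.211 and 0.568), and with no filter the KI call was lost. Adcy10 overlaps Gm18186 on the same strand, which had 4.89 CPM in WT, and reads in the overlap cannot be told apart.

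Atp2b4, the plasma membrane calcium pump of the sperm tail, did not pass the test (ENSMUSG00000026463, chr1:133699457-133801041, minus strand). It had 113 ± 13.8 CPM in WT, against 128 ± 13.4 in KO and 133 ± 14.1 in KI, with log2 fold changes of +0.17 (SE 0.11, adjusted p 0.299) and +0.23 (SE 0.11, adjusted p 0.139). In KI it stayed uncalled in 24 of 26 alternatives, and it was called without WT 6 (+0.32, adjusted p 0.0524). Hvcn1, the voltage-gated proton channel, lay near the floor (ENSMUSG00000064267, chr5:122206804-122242297, plus strand). It had between 2 and 17 counts a library, with 3 WT libraries at or under 3 counts, and a mean of 0.189 ± 0.102 CPM in WT, against 0.392 ± 0.225 in KO and 0.416 ± 0.175 in KI. With no filter its log2 change was +0.99 (adjusted p 0.198) in KO and +1.12 (adjusted p 0.119) in KI, and neither was called by edgeR. DESeq2 called Hvcn1 in KI (+1.14, adjusted p 0.0861) and not in KO (0.145). It passed the filter in 13 of the fits with 1 library left out, through mutant libraries, and was called in 9 of them in KO and 11 in KI. As it entered these fits through the libraries where it was high, these calls are no support for a rise. Its 3′ end overlaps Tctn1 on the opposite strand, at 67.0 CPM in WT.

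Counted together, 4 of the 8 genes tested fell by any amount in KO (Atp1b3, Atp1a4, Kcnu1 and Adcy10), where 13.5% of all genes tested fell. In KI the same 4 fell with Atp1b1, 5 of 8, where 15.4% of all genes fell. None rose, against 16.4% and 16.1% of all genes (29.9% and 31.6% in either direction). The median log2 fold change of the 8 was -0.38 in KO and -0.43 in KI, beside 0.03 and 0.05 over all 21058 genes. Genotypes did not overlap for 2 falling genes in KO (Atp1b3 and Atp1a4) and 4 in KI (with Atp1b1 and Adcy10), where 6.44% and 7.91% of all genes lay wholly below WT. None lay wholly above WT, against 6.62% and 5.97% of all genes. Both comparisons use the same WT libraries. In each, 2 genes, Atp1a4 and Atp1b3, remained called with close pairs summed and KI 4 left out.

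**Figure D3:**
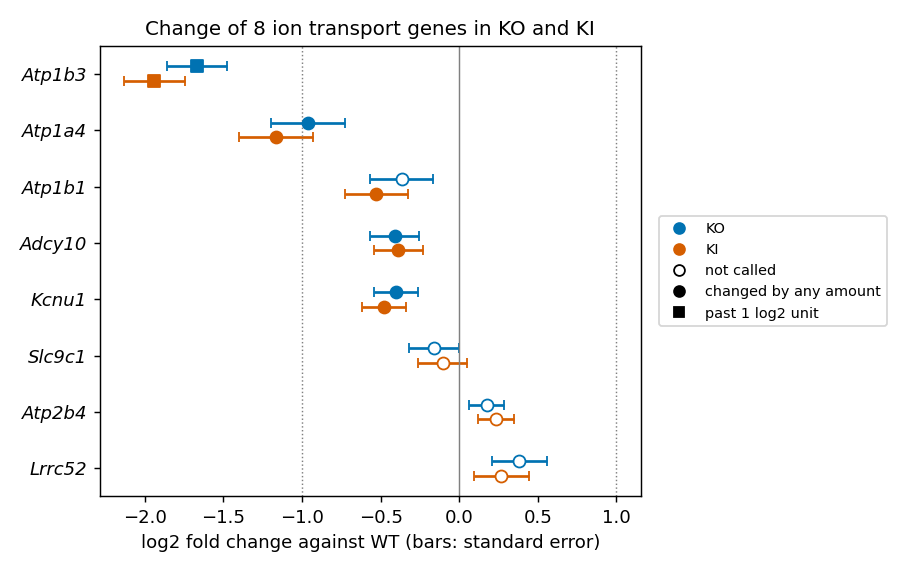
Log2 fold change against WT (x axis) with its standard error for the 8 genes tested, in KO (blue) and KI (orange), with dotted lines at 1 log2 unit. Filled circles were called for any change and squares past 1 log2 unit, where Atp1b3 alone stands.

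No difference between KI and KO was called for any of the 8 genes. The log2 difference of KI from KO ran from -0.27 (Atp1b3, SE 0.19) to +0.06 (Atp2b4, SE 0.11), with all adjusted p-values at 0.961 or above. None had an unadjusted p under 0.05, and DESeq2 called none. Over all genes 0.0997% were called (0.0760% higher and 0.0237% lower in KI), and 0.00475%, or 1 gene, past 1 log2 unit. The KI and KO libraries overlapped for each member, where 0.223% of all genes had groups that did not overlap (0.119% higher and 0.104% lower in KI). For Atp1b3 the difference was -0.26 without KI 4.

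Of the 18 genes on a list of Na,K-ATPase and related pump subunits, 13 were tested. Besides the members above, 4 of 10 rose in KO by any amount and 1 fell, and in KI 2 rose and none fell. Over all genes 16.4% rose and 13.5% fell in KO, and 16.1% and 15.4% in KI. Of the rises, 3 in KO and 2 in KI were of genes that would not have passed the filter on WT libraries alone. Atp1b2, a beta subunit of glia, had 1.72 ± 0.409 CPM in WT, against 2.43 ± 0.867 in KO and 2.01 ± 0.563 in KI, and was not called.

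The small FXYD proteins, which tune the pump, were low in these cells. Fxyd1 went from 0.310 ± 0.0964 CPM in WT to 1.23 ± 0.730 in KO (log2 +1.98, SE 0.42, adjusted p 0.00139) and 1.10 ± 0.638 in KI (+1.81, SE 0.42, adjusted p 0.00283). Fxyd3 had 0.107 ± 0.0919 CPM in WT, where 5 of 6 libraries were at the floor, 0.527 ± 0.249 in KO and 0.466 ± 0.232 in KI, and it was called (adjusted p 0.00177 and 0.00336). No WT library had Fxyd1 or Fxyd3 at the level the filter asks for (0.440 CPM in 6 libraries), so that both entered the test through the mutant libraries, where they were high, and these calls are no support for a rise. Fxyd2 fell in KO, from 8.21 ± 2.89 to 5.44 ± 0.801 CPM (-0.59, adjusted p 0.0358), and had 9.29 ± 1.495 CPM in KI. The Fxyd2 call was lost without WT 2 (adjusted p 0.101) and with close pairs summed and KI 4 left out (0.142). Fxyd5 and Fxyd6, with means under 2 CPM in each genotype, were not called. Of the related pumps, Atp12a, a proton-potassium pump, went in KO from 0.545 ± 0.136 to 1.04 ± 0.268 CPM (+0.93, adjusted p 0.0117) and had 0.545 ± 0.175 in KI. With 4 WT libraries at the filter's level it also passed with the help of mutant libraries. The gastric pump gene Atp4a, at 0.435 ± 0.160 CPM in WT, was not called. Fxyd1 and Fxyd3 lay on the side of the Leydig markers, and the part of other cells in this was not tested.

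The remaining 5 transport lists and the CatSper list held 2 genes called higher past 1 log2 unit in KI and 1 that fell in each mutant, where 0.522% of all genes were called higher past it in KI, and 1.13% in KO and 1.43% in KI had fallen past it. Over the 66 tested genes on all the lists outside the 9, 18 rose and 7 fell by any amount in KO and 15 rose and 7 fell in KI, with median log2 fold changes of 0.00 and 0.10. Over all genes 16.4% rose and 13.5% fell in KO, and 16.1% and 15.4% in KI. Of the rises on the lists, 8 in KO and 7 in KI were of genes that would not have passed the filter on WT libraries alone. Car2, a carbonic anhydrase that interconverts carbon dioxide and bicarbonate, fell in both. It ran from 136 CPM through 179 to 196 in WT, from 10.5 through 22.02 to 27.7 in KO, and from 13.97 through 18.98 to 22.2 in KI. No mutant library came near WT. The log2 fold change was -3.05 (SE 0.19) in KO and -3.19 (SE 0.20) in KI, with adjusted p-values of 2.11e-07 and 6.81e-08 against 1 log2 unit. With close pairs summed and KI 4 left out the fall past 1 log2 unit stayed called (5.13e-05 and 0.000292).

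Slc8b1, the sodium-calcium exchanger of mitochondria, went from 0.416 ± 0.0893 CPM in WT to 1.44 ± 0.623 in KO and 1.998 ± 0.516 in KI. Its log2 change was +1.79 (SE 0.30, adjusted p 0.000126 for any amount) in KO and +2.24 (SE 0.29) in KI, past 1 log2 unit in KI (adjusted p 0.0130, and 0.0346 without KI 4). It reached the filter's level in 2 WT libraries and in all mutant libraries, so that it too passed the filter through the mutants, and its calls are no support for a rise. The KI value against 1 log2 unit was 0.404 with close pairs summed and KI 4 left out. Kcnmb2, an accessory subunit of calcium-activated potassium channels, had 0.108 ± 0.0883 CPM in WT, where 4 libraries were at the floor, 0.603 ± 0.188 in KO and 0.674 ± 0.358 in KI. No WT library had it at the filter's level, so that it entered the test through 5 KO and 4 KI libraries where it was high, and its calls are no support for a rise. It was called for any amount in KO (adjusted p 0.000752) and narrowly past 1 log2 unit in KI (adjusted p 0.0975). That last call was lost without KI 4 (0.258), with close pairs summed as well (0.687), with DESeq2 (0.130), and without any of WT 1, WT 2, WT 3, WT 4, KO 2, KO 4, KO 5, KO 6, KI 3, KI 5 or KI 6 (0.112 to 0.281).

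**Figure D4:**
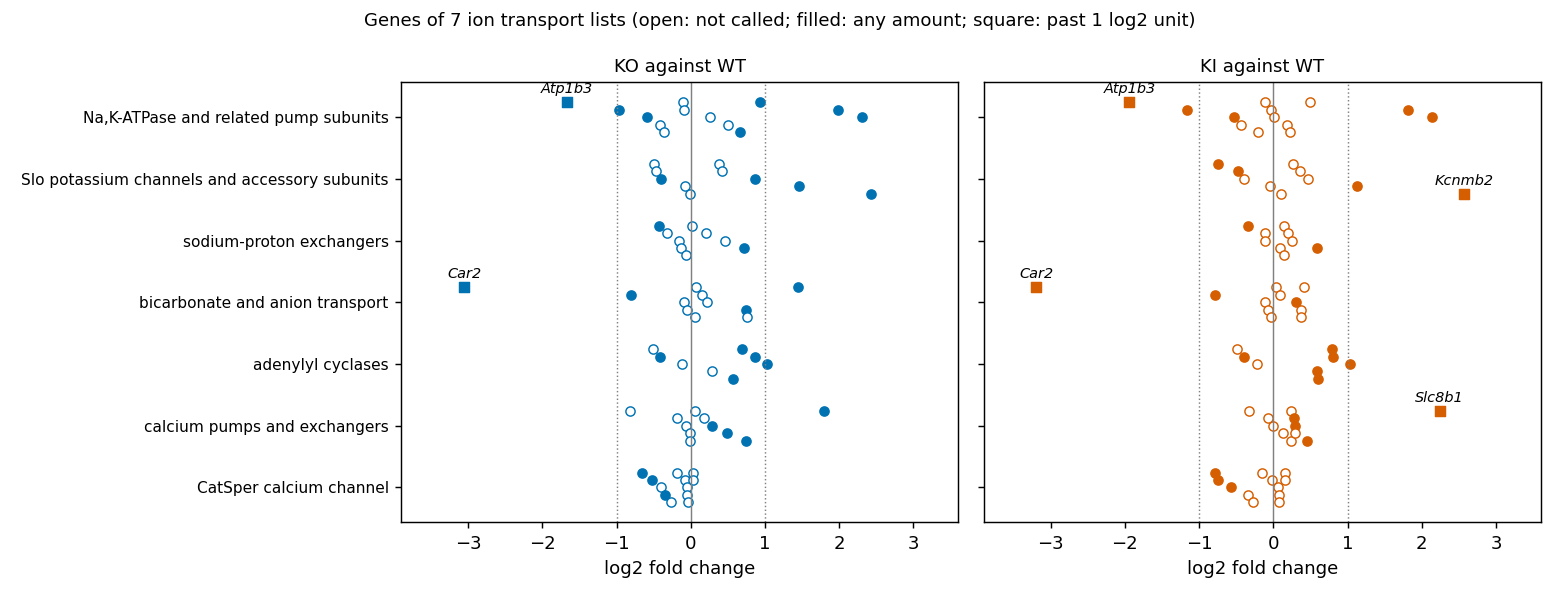
Log2 fold change against WT (x axes) of each tested gene on the 7 transport lists (rows), in KO (left) and KI (right), with points spread vertically within a row for legibility. Squares mark genes past 1 log2 unit: Atp1b3 and Car2 in both mutants, and Slc8b1 and Kcnmb2 in KI, both of which passed the filter through mutant libraries.

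Among 12 sodium-proton exchangers, 9 were tested, and 1 rose and 1 fell in each mutant, beside 16.4% and 13.5% of all genes in KO and 16.1% and 15.4% in KI. Slc9b1, a sperm exchanger, fell from 226 ± 15.4 CPM in WT to 167 ± 15.5 in KO and 179 ± 17.9 in KI. The log2 fold change was -0.43 (SE 0.10, adjusted p 0.00392) in KO and -0.34 (SE 0.11, adjusted p 0.0196) in KI, and the KI call was lost without WT 3 (0.128). Neither was called with close pairs summed and KI 4 left out (0.102 and 0.434). No mutant library reached the lowest WT library, at 205 CPM. Slc9a5 had 65.1 ± 17.8 CPM in WT, against 62.3 ± 11.2 in KO and 75.1 ± 31.6 in KI, and did not pass the test.

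Of 10 adenylyl cyclases, 8 were tested, and while Adcy10 fell, 4 others rose in KO and 5 in KI, where 16.4% and 16.1% of all genes rose. In each mutant 2 of these would not have passed the filter on WT libraries alone. These membrane cyclases were scarce beside Adcy10. Adcy1, a calcium-activated cyclase, rose from 5.01 ± 0.630 CPM in WT to 8.05 ± 1.82 in KO (log2 +0.68, SE 0.14, adjusted p 0.00127) and 8.72 ± 0.674 in KI (+0.80, SE 0.14, adjusted p 0.000249). Adcy6 rose in KI, from 5.18 ± 0.976 to 7.86 ± 1.40 CPM (+0.60, adjusted p 0.0145), and had 6.29 ± 1.67 in KO. The Adcy6 call was lost with close pairs summed and KI 4 left out (0.168). Adcy3 was not called.

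Of the 13 calcium pumps and exchangers 11 were tested, and 4 rose and none fell in each mutant, of which 1 would not have passed the filter on WT libraries alone. Of the 14 bicarbonate and anion transport genes 11 were tested, and 2 rose and 2 fell in KO, and 1 rose and 2 fell in KI. Of 12 potassium channel genes of the Slo family with their accessory subunits, 10 were tested, with 3 rising and 1 falling in KO and 2 rising and 2 falling in KI. Of these rises, 2 in KO and both in KI were of genes that WT libraries alone would not have carried past the filter. The 12 CatSper genes, for the calcium channel of the sperm tail, were all tested, and 3 fell in each mutant by any amount, with Catsper3, a marker of round spermatids above, among them in both. The annotation gives 1 of the 12, Catspere1, as a pseudogene. The counts on these 4 lists stand beside 16.4% of all genes that rose and 13.5% that fell in KO, and 16.1% and 15.4% in KI. Catsper2, first of them by CPM though not per kb, had 379 ± 30.4 CPM in WT, 298 ± 60.8 in KO (-0.34, adjusted p 0.0759) and 313 ± 40.7 in KI (-0.28, adjusted p 0.155). The KO call of Catsper2 was lost without WT 1, WT 2, WT 5, KO 2, KO 3, KO 4 or KO 5 (adjusted p 0.104 to 0.178), and with close pairs summed and KI 4 left out (0.282). Catsperg1 and Catsperz were not called.

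The genes most like Atp1b3 in pattern were sought among all genes tested, as a description. Over the 18 libraries, with log2 CPM, Pearson's r was 0.997 for Gapdhs, the glycolytic enzyme of the sperm tail, 0.996 for Dbil5, Akap4 and Vsig1, and 0.996 for Csnk1g2, a casein kinase. Akap4 anchors PKA in the fibrous sheath of the tail and fell from 2319 CPM in WT to 541 in KO and 458 in KI. These values carry the difference between genotypes that all these genes share, together with library and depth. On deviations from genotype means, which leave that difference out, the nearest were Zcchc13 (0.989), Vsig1 (0.988), Dbil5 (0.983), Nbr1 (0.982) and Aldoart2 (0.980). Among the members, Atp1a4 was nearest on both measures (r 0.930 and 0.940), ahead of Kcnu1 (0.865 and 0.871) and Adcy10 (0.815 and 0.891). Atp1b1 (0.469 and -0.367) and Lrrc52 (-0.242 and 0.556) had values of opposite sign on the 2 measures, negative on deviations for Atp1b1. Slc9c1 (0.184 and 0.0918) and Atp2b4 (-0.498 and 0.0937) were far from it. The close pairs hold similar counts, so the 18 points may not be independent.

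**Figure D5:**
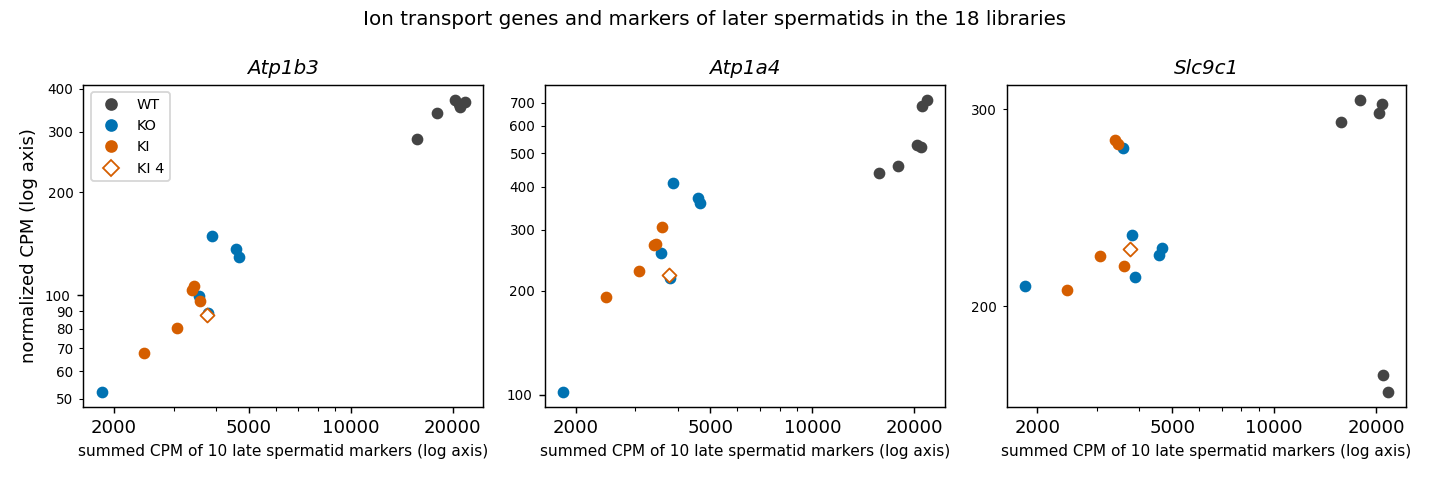
Level of Atp1b3, Atp1a4 and Slc9c1 (y axes, CPM, log) against the summed CPM of 10 markers of later spermatids (x axes, log), with 1 point per library coloured by genotype. For Atp1b3 and Atp1a4 the library with the lowest marker sum, KO 3 at 1840 CPM, is also the lowest of the 18, while Slc9c1 shows no such order.

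Within KO the same library was low in several members. KO 3, with a marker sum of 1840 CPM against 3573 to 4670 in the other KO libraries, had the lowest KO level of Atp1b3 (52.3 CPM), Atp1a4 (102), Kcnu1 (57.0) and Adcy10 (185), and also of Slc9c1 (208) and Lrrc52 (19.99), but not of Atp1b1 or Atp2b4. It also had the lowest KO sum of round spermatid markers (523 CPM, against 711 to 1181) and the highest of spermatocyte markers (1784, against 1405 to 1539), and the part of these cells in the low levels was not tested. Without KO 3 the log2 fold change in KO was -1.52 for Atp1b3, -0.79 for Atp1a4, -0.31 for Kcnu1 and -0.30 for Adcy10. Adcy10 was then no longer called (adjusted p 0.127), while the other 3 were.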

How the data were processed

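Libraries were made from total RNA of isolated RS with a low-input Takara kit, with no selection for poly(A). The authors trimmed reads with cutadapt 3.4, aligned them with STAR 2.7.8a to mm10 and deposited raw counts of read pairs per gene (featureCounts 2.0.1, strand-aware). Duplicates were marked and kept. Symbols were matched by gene identifier for 54079 of 54232 genes, and library totals ran from 18766971 to 26776555, where 3 counts, taken as the floor, are 0.112 to 0.160 CPM. The counts of 18 libraries, 6 a genotype from the labels, were fitted in 1 edgeR 4.0.16 quasi-likelihood model (R 4.3.3) after filterByExpr (21058 genes) with TMM scaling. A change of any amount was tested with glmQLFTest and a change past 1 log2 unit with glmTreat, in its worst-case form, which was chosen after the data were seen. Values were adjusted by Benjamini-Hochberg over all genes and called under 0.1. CPM used TMM factors, and ratios used log2 CPM with a prior count of 2 (exact permutation, SciPy 1.17.1). Promoter windows were RefSeq's on GRCm38.p6. Alternatives included DESeq2 1.42.0, other filters and scaling, a replicate block, close pairs of libraries summed, and each library left out.

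The 9 genes, the 7 transport lists and the 10 marker lists were chosen with earlier results of these data known. The text names Ddx25, the 9 genes, every pump gene that passed the filter, in each other list the genes past 1 log2 unit or otherwise the 3 most abundant, and the 5 genes most like Atp1b3 on each measure. Values of some genes on the lists are not reported here, and p-values of the ratios were adjusted over all 15 tests made. Slc4a10 was added after its values were seen. The scripts were tested on simulated data.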

Additional observations from a re-analysis of the deposited data

Results flagged for a closer look

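Levels of 14 genes and 3 ratios, in 51 groups of 6 libraries, were searched for a library far from the other 5 by Dixon's critical value for 6 samples. Such a library stood out in 6 groups, where chance gives about 1 in 20. Atp1b1 was high in WT 1 (3.20 CPM) and in KO 2 (3.14 CPM). Atp1b3 was low in WT 6 (286 CPM), the library with the lowest sum of late spermatid markers in WT. Slc9c1 was high in KO 6 (277 CPM). The log2 ratio of Atp1b3 to Atp1a4 was high in KO 3 (-0.96). Ddx25 was high in the library labelled KI 4 (56.9 CPM).

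Of 74 genes on the transport lists tested between the mutants, Slc4a10, a sodium bicarbonate transporter, was the only one called. Over all genes tested 0.0997% were called between KI and KO, with 0.0237% lower in KI. It had 2.69 ± 0.789 CPM in WT (n = 6), 7.33 ± 1.61 in KO and 2.48 ± 1.56 in KI. It rose in KO (log2 +1.45, adjusted p 0.000607, edgeR) and the difference of KI from KO was -1.56 (SE 0.28, adjusted p 0.0359). All 6 KI libraries lay below all 6 KO libraries. That call was lost without KI 2 (adjusted p 0.111) and with only KO and KI in the fit (0.123). KI 4 stood apart in KI, at 5.46 CPM against 1.10 to 2.78 in the other 5 libraries, and without it the difference was -1.96 (adjusted p 4.93e-05), or -1.93 (0.00602) with close pairs summed as well.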

How the results depend on the processing

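With close pairs summed and KI 4 left out, which leaves fewer samples, the genes past 1 log2 unit went from 1 to 0 in KO and in KI, those changed by any amount to 2 in each, and the ratios called from 3 to 0 in each. These ratios stood at the smallest p that so few samples allow, so their missing calls cannot show a lost effect. At an adjusted p under 0.05 the counts were 0 past 1 log2 unit in KO and 3 by any amount in KI, and with no filter the latter was also 3. Leaving out each library in turn gave 0 to 1 past 1 log2 unit in KO, and by any amount 3 to 6 in KO and 4 to 6 in KI, with Hvcn1 among them in 9 and 11 of the 13 fits in which it passed the filter. Hvcn1 passed through mutant libraries, so its calls there are no support for a rise.

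Signs turned for values near 0, none of them called. With close pairs summed these were the differences of KI from KO of Atp1a4 (0.0047) and Kcnu1 (0.015) and of the ratio to Atp1b1 (0.071), and the KI changes of Atp4a (0.21), Atp12a (-0.028) and Catsperg1 (0.13). With only the genotypes compared, Atp4a (0.015) and Catsperg1 (0.035) turned in KI, and Catsperg1 (0.0045) did with DESeq2's size factors. With 1 library left out, the difference of KI from KO ranged from -0.26 to 0.0083 for Atp1b1 and from -0.087 to 0.11 for Adcy10, and from -0.27 to 0.083 and -0.12 to 0.22 for the ratios to Atp1b1 and Atp1b2. The KO change ranged from -0.17 to 0.028 for Slc9a5. The KI change ranged from -0.19 to 0.14 for Atp4a, -0.13 to 0.16 for Atp12a, -0.23 to 0.11 for Catsperg1 and -0.51 to 0.044 for Slc4a10. The cause was not tested.

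With the replicate block, 1 gene was past 1 log2 unit in each mutant, 5 in each had changed by any amount (in KO with Lrrc52) and 3 ratios were called in each (adjusted p 0.0469, exact sign-flip test), and Atp12a turned to -0.0087 in KI. Only 7 of 18 pairs with the same number had deviations correlated above 0.1 (-0.441 to 0.481), and 4 were closest to their own number, so the numbers do not pair the libraries. Among the single values, 2193 alternatives kept side and direction, 75 lost a call, 17 gained one and 46 turned. Depth limits Hvcn1, Kcnmb2 and Fxyd3, which lie near 3 counts in WT.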
